A study of Mus musculus with 16 samples.

Results

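The transcription factor p53 and 31 genes that it is known to activate were followed in mouse CD8+ T cells edited with a guide RNA against Tardbp, the gene for the RNA-binding protein TDP-43. The 32 genes were picked by symbol, with earlier results of these data known, from the 55536 genes of the annotation. Together they hold p53 (Trp53) with its feedback inhibitors, genes of cell cycle arrest, genes of apoptosis, DNA repair genes, and genes of metabolism and stress. Of these, 30 had enough counts to be tested, and the other two, Gdf15 and Ak1, were near 0 in every library.

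Cells of both groups came from OT-I mice (OT-1 Tg C57BL/6J), whose CD8+ T cells share 1 T cell receptor transgene that recognises SIINFEKL, a peptide of ovalbumin, and which the methods describe as lacking Rag1 or Rag2. They were electroporated with the nuclease Cas9 and either a scrambled guide (Control gRNA, 8 libraries) or a guide to Tardbp (Tardbp gRNA, 8 libraries), and were moved into C57BL/6J recipients. All recipients were given SIINFEKL with anti-OX40 and anti-41BB, agonist antibodies to a pair of costimulatory receptors, and cells were sorted from spleen and lymph nodes on day 4 by the labels, a little earlier by the methods. Only the Tardbp guide has a target in the genome, so a cut in DNA and a loss of TDP-43 cannot be told apart in this design, and no library of a guide that cuts elsewhere is among the 16. The edited cells were a mixed population and not a clone. The methods give an age range and both sexes for all mice of the study and none for these groups. A deposited column headed sex gives M or F for each library, with both letters in both groups but in unequal numbers. It does not say whether donor or recipient mice are meant. The study describes the cells as purified from individual recipient mice and mentions a stimulation after purification, which the labels do not. The labels do not say how many donor pools or electroporations stand behind the libraries of a group, so p-values measure the spread between these libraries.

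As background, p53 is a transcription factor that binds DNA as a tetramer of 2 pairs of subunits, each pair on a 10-base half-site. Its activity is held down by Mdm2, a ubiquitin ligase that sends p53 to the proteasome and is itself a p53 target, so p53 is controlled mostly as a protein and its RNA level says little about its activity. Breaks in DNA stop this degradation through the kinases Atm and Chek2. The targets then act in separate branches, with the CDK inhibitor p21 (Cdkn1a) stopping the cell cycle and BH3-only proteins such as Puma (Bbc3) and Noxa (Pmaip1) opening the mitochondrial path to apoptosis. In dividing T cells both branches limit how far a clone grows.

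The p53 targets did not move as 1 block. Of the 30 tested genes 16 were called, 10 higher and 6 lower in Tardbp gRNA, by edgeR's quasi-likelihood test at a Benjamini-Hochberg adjusted p under 0.05 over 16650 genes. This is 53.3% of the tested targets, beside 46.7% of all genes tested. By direction, 23.5% of all genes were higher and 23.3% lower, and of the targets 33.3% were higher and 6 of 30 lower. The median log2 fold change was 0.08 over the targets and 0.05 over all genes. Among changes over 1 in size on the log2 scale the targets held 5 of 30 (16.7%), all higher, beside 6.01% of all genes. The 5 were Gadd45a, Bbc3, Plk2, Phlda3 and Trp53inp1.

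Libraries held 56016533 to 94801105 estimated counts in annotated genes, and values are given in CPM, estimated counts divided by library size after TMM scaling. Tardbp itself was lower in all 8 Tardbp gRNA libraries than in any control, with a mean of 192 ± 13.3 CPM in Control gRNA and 135 ± 11.3 in Tardbp gRNA (SD, n = 8 each). Its log2 fold change was -0.51 (SE 0.06, adjusted p = 8.07e-07), and a count does not tell an intact reading frame from an edited one. The RNA concentration recorded before dilution, which has no unit in its header, ran from 34.9 to 197.1 for the controls and from 10.1 to 24.0 for the edited cells, with no overlap. With its log2 as a covariate, 16.2% of all genes were called and 6 of the 30 targets. These were Bbc3, Bax, Phlda3 and Sesn1, higher, and Apaf1 and Pidd1, lower. Markers of the sorted cell type were high, and over 8 CD8 T cell genes, of which 6 were called higher and 1 lower, they summed to 4984 to 6139 CPM for the controls and 6886 to 8235 for the edited cells.

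Some transcripts of other cells differed between the groups. Of tested red cell precursor and NK cell markers, 80% and 50% were called. For myeloid and B cell markers it was 28.6% and 20%, beside 46.7% of all genes. Of 5 tested red cell precursor markers 4 were called, all higher, and these were all 4 globin genes. The 7 markers summed to 0.442 to 17.8 CPM in controls and 9.10 to 182 in edited cells. Tardbp gRNA replicates 1 and 4 stood highest at 148 and 182. Myeloid markers (2 of 7 tested called, Lyz2 and S100a8, both higher) summed to 24.8 to 44.7 CPM and 31.2 to 90.4 CPM. The B cell markers summed to 374 to 460 CPM in controls and 541 to 708 in edited cells, without overlap and mostly from Ighm, the one called (higher), while Pax5, a defining factor of B cells, was at or near 0. None of 4 CD4 T cell markers and 2 of 4 NK cell markers (Nkg7 and Eomes, both also known in effector CD8+ T cells, and with summed levels of 941 to 1571 CPM in controls and 1761 to 2118 in edited cells) were called by edgeR, and no CD4 marker had an unadjusted p under 0.05. Their part in the results on p53 targets was not tested. Without Tardbp gRNA replicates 1 and 4, a choice made after seeing the data, the calls of Fas and Aen were lost. Perp was then called, lower, and the other calls were kept. This removal is no test of these markers, because the libraries left in still held them. Red cell precursor markers summed to 50.7 and 59.9 CPM in Tardbp gRNA replicates 6 and 7, above every control, and the highest myeloid sum, 90.4 CPM, was in replicate 6. In such bulk samples, fewer cells of a type and less RNA per cell cannot be told apart.

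Promoter sequence was set beside these genes because p53 acts on them through its binding site. RefSeq promoter windows (GRCm38.p6, 250 bases before to 50 after a start) were found for 24 of the 32 genes, 34 windows in all. A p53 half-site, searched as 3 purines, C, a pair of A or T, G and 3 pyrimidines, which reads alike on both strands, lay in 12 of the 34 windows (35.3%) and in 8.36% of all 32851 windows. The half-site was present in 11 of the 24 genes, of which 3 were called higher (Bax, Gadd45a, Sesn1), 3 lower (Aen, Mdm2, Trp53) and 5 not called (Ccng1, Cdkn1a, Ei24, Polk, Ppm1d). Only 1 gene, Cdkn1a, had a pair of half-sites within 13 bases of each other, which 0.0731% of all windows hold. A match is a description of letters and not a site shown to be bound, and sites far from a start lie outside these windows. The 60-base stretches printed here show matches to this pattern, which differ in their letters, upstream of genes with different calls, with half-sites in capitals, 5′ to 3′ on the strand of the gene.

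The 2 half-sites of Cdkn1a begin 73 and 51 bases before its upstream start, with 12 bases between them, at chr17:29090892-29090951 on the plus strand.
Cdkn1a: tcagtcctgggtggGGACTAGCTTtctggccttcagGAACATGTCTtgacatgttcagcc
Mdm2 has its half-site 186 bases before the start, at chr10:117710910-117710969 on the minus strand.
Mdm2: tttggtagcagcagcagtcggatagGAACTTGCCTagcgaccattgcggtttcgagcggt
Ccng1 has its half-site 185 bases before the start, at chr11:40755437-40755496 on the minus strand.
Ccng1: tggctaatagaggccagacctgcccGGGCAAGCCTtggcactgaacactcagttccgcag
The half-site of Trp53 lies 75 bases before the start, at chr11:69580259-69580318 on the plus strand.
Trp53: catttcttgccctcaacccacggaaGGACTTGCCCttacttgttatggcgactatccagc
That of Bax lies 201 bases before the start, at chr7:45467065-45467124 on the minus strand.
Bax: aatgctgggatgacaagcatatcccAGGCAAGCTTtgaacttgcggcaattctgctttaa
That of Gadd45a lies 40 bases before the start, at chr6:67037413-67037472 on the minus strand.
Gadd45a: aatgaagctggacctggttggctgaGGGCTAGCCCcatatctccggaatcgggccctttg
That of Sesn1 lies 173 bases before the inner of its starts, at chr10:41887241-41887300 on the plus strand.
Sesn1: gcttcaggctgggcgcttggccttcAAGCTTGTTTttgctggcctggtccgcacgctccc

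Trp53 and Mdm2 were slightly lower in Tardbp gRNA. Trp53 ranged from 259 CPM over a median of 277 to 309 in Control gRNA and from 233 over 253 to 263 in Tardbp gRNA. The ranges met only at their edges, and 6 of 8 Tardbp gRNA libraries were below every control. Its log2 fold change was -0.18 (SE 0.04, adjusted p = 0.00216), a fold of 0.885 (95% interval 0.831 to 0.943). Mdm2, the ligase that removes p53, spanned 112 to 133 CPM with a median of 117 in Control gRNA and 96.7 to 115 with a median of 104 in Tardbp gRNA. Again 6 of the 8 edited libraries lay below all controls, with a log2 fold change of -0.15 (SE 0.04, adjusted p = 0.00734). Ppm1d, the phosphatase Wip1 that dephosphorylates p53 and its kinases, was not called, at 15.2 ± 3.69 CPM against 17.1 ± 6.24 and a log2 fold change of 0.17 with an interval of -0.26 to 0.61. Neither Trp53 nor Mdm2 was called with the RNA concentration as a covariate (adjusted p = 0.373 and 0.0817), and Mdm2 was not called within replicates 4 to 8 alone (adjusted p = 0.0702).

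**Figure D1:**
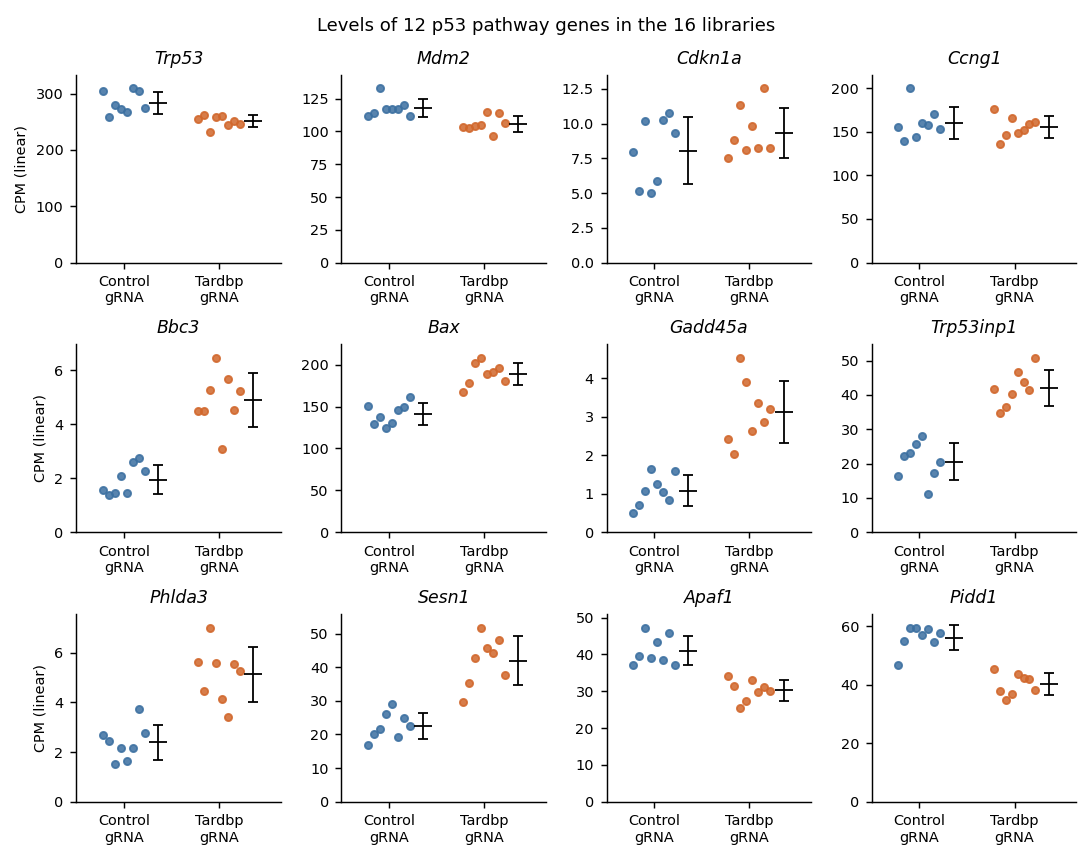
CPM on a linear axis from 0 for 12 genes of the set in each library, with 8 Control gRNA libraries in blue and 8 Tardbp gRNA libraries in orange, and the mean and SD in black beside each group. Bbc3, Bax, Gadd45a, Trp53inp1 and Sesn1 are higher in every Tardbp gRNA library than in every control, Apaf1 and Pidd1 are lower in every one, and Cdkn1a and Ccng1 overlap widely.

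In the arrest branch 4 of 7 genes were called (57.1%, beside 46.7% of all genes), all higher. Cdkn1a, Ccng1 and Plk3 were not called. Cdkn1a, which encodes p21, ranged from 5.03 CPM over a median of 8.63 to 10.8 in Control gRNA and from 7.51 over 8.52 to 12.5 in Tardbp gRNA. The medians were nearly the same and the ranges overlapped over most of their length. Its log2 fold change was 0.21 (SE 0.17, 95% interval -0.16 to 0.57, adjusted p = 0.333), so a rise above 1.49-fold lies outside the interval. Ccng1, cyclin G1, an abundant p53 target that recruits a phosphatase to Mdm2, had 160 ± 18.6 CPM in Control gRNA and 156 ± 12.3 in Tardbp gRNA. Its interval was narrow, at -0.18 to 0.10 on the log2 scale around -0.04.

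The 4 that rose were Gadd45a, Plk2, Zmat3 and Btg2. None of these 4 was called with the RNA concentration as a covariate. Gadd45a, a stress protein that binds the Cdk1 complex and the kinase MTK1, was scarce and ranged from 0.497 CPM over 1.06 to 1.63 in Control gRNA, and from 2.04 over 3.04 to 4.53 in Tardbp gRNA. All 8 edited libraries were above every control, and the log2 fold change of 1.53 (SE 0.23, adjusted p = 2.33e-05) was the largest of the set. It rests on few counts, 35 to 379 per library, where libraries held 1.89 to 2.02 counts per read pair. Part of the exons of Gadd45a is shared with another gene, as given further below. Plk2, a kinase of the centrosome and of stress response, went from a median of 1.12 CPM (0.739 to 1.98) to 2.99 (1.35 to 3.93), with 7 of 8 edited libraries above the controls and a log2 fold change of 1.25 (SE 0.25, adjusted p = 0.000399). In Tardbp gRNA replicate 1 it stayed inside the control range.

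Zmat3, an RNA-binding zinc finger protein, rose from 4.19 ± 0.447 to 5.83 ± 0.900 CPM without overlap, a log2 fold change of 0.48 (SE 0.10, adjusted p = 0.000726). Btg2, an antiproliferative protein that recruits the CCR4-NOT deadenylase and keeps T cells quiescent, was abundant and went from 123 ± 18.4 to 161 ± 16.5 CPM, with 7 of 8 edited libraries above all controls and a log2 fold change of 0.39 (SE 0.09, adjusted p = 0.00114). Plk3, another stress kinase of the polo family, was the most variable gene of the 30 in both groups, with SDs of 43.2% and 45.1% of its means. Its log2 fold change of 0.45 had an interval of -0.14 to 1.05 and was not called.

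The apoptosis branch held calls in both directions, 5 higher and 3 lower of 12 tested (66.7% called, beside 46.7% of all genes). By direction this is 41.7% higher and 25.0% lower, beside 23.5% and 23.3% of all genes. Bbc3 (Puma), a BH3-only activator of Bax, ranged from 1.38 CPM over 1.83 to 2.73 in Control gRNA and from 3.07 over 4.87 to 6.45 in Tardbp gRNA. No edited library reached down to a control. The log2 fold change was 1.33 (SE 0.17, adjusted p = 5.85e-06), 2.52-fold with an interval of 1.94 to 3.26. Bax, the pore former on which Puma acts, was among the most abundant of the 32 genes and ranged from 125 over 142 to 161 CPM in controls and from 167 over 190 to 208 in edited cells. Here too the groups were apart, by a log2 fold change of 0.42 (SE 0.06, adjusted p = 8.29e-06). By contrast Pmaip1 (Noxa), the other BH3-only gene of the set, was level at 46.6 ± 4.77 and 46.0 ± 4.27 CPM, with an interval of -0.17 to 0.13 around a log2 fold change of -0.02.

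Trp53inp1, a nuclear and autophagy-linked protein that promotes p53-dependent death, ranged from 11.2 over 21.4 to 28.1 CPM in Control gRNA and from 34.8 over 41.6 to 50.8 in Tardbp gRNA. Again no libraries overlapped, and the log2 fold change was 1.03 (SE 0.14, adjusted p = 1.23e-05). With the RNA concentration as a covariate Trp53inp1 was not called. Phlda3, which blocks Akt at the membrane, went from a median of 2.31 (1.51 to 3.72) to 5.40 (3.39 to 7.01), a log2 fold change of 1.10 (SE 0.18, adjusted p = 5.49e-05). Only Tardbp gRNA replicate 6 fell within the control range. Fas, the death receptor of contraction in T cells, had 34.8 ± 4.75 and 41.2 ± 5.52 CPM and a small log2 fold change of 0.24 (SE 0.09, adjusted p = 0.0337). That call was lost when any 1 of 11 libraries was left out (Control gRNA replicates 1, 2, 3, 4 and 8 and Tardbp gRNA replicates 1, 3, 4, 5, 6 and 7), up to an adjusted p of 0.125. The call of Fas was also lost with the RNA concentration as a covariate.

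The apoptosis genes that fell were Apaf1, Pidd1 and Aen. Apaf1, the core of the apoptosome that activates caspase-9, ranged from 37.1 over 39.4 to 47.3 CPM in Control gRNA and from 25.6 over 30.6 to 34.1 in Tardbp gRNA. Every edited library was below every control, with a log2 fold change of -0.44 (SE 0.07, adjusted p = 4.56e-05). Pidd1, the scaffold of the caspase-2 PIDDosome, ranged from 46.6 over 57.4 to 59.6 CPM and from 34.9 over 40.1 to 45.5 CPM. It did not overlap either, at a log2 fold change of -0.48 (SE 0.06, adjusted p = 6.15e-06). Aen, an exonuclease that degrades DNA during apoptosis, was lower by a log2 fold change of -0.18 (SE 0.07, adjusted p = 0.0407), and its edited libraries (35.5 to 40.3 CPM) all lay inside the control range of 34.5 to 49.1. The Aen call was lost without any 1 of 5 libraries (Control gRNA replicates 1, 5, 6 and 7 and Tardbp gRNA replicate 2, adjusted p up to 0.0876), and with the RNA concentration as a covariate its estimate turned to 0.13.

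Perp, a desmosomal and apoptotic membrane protein, had a log2 fold change of -0.27 (interval -0.63 to 0.08) and was not called in all 16 libraries, although without Tardbp gRNA replicate 1 it was (adjusted p = 0.0454). Without replicates 1 and 4 of the same group the log2 fold change of Perp was -0.52 (adjusted p = 0.00815). Ei24, an endoplasmic reticulum protein linked to autophagy, had 59.0 ± 7.06 and 64.2 ± 7.32 CPM, and Tnfrsf10b, the death receptor for Trail, 1.89 ± 0.582 and 2.00 ± 0.451. Neither was called.

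**Figure D2:**
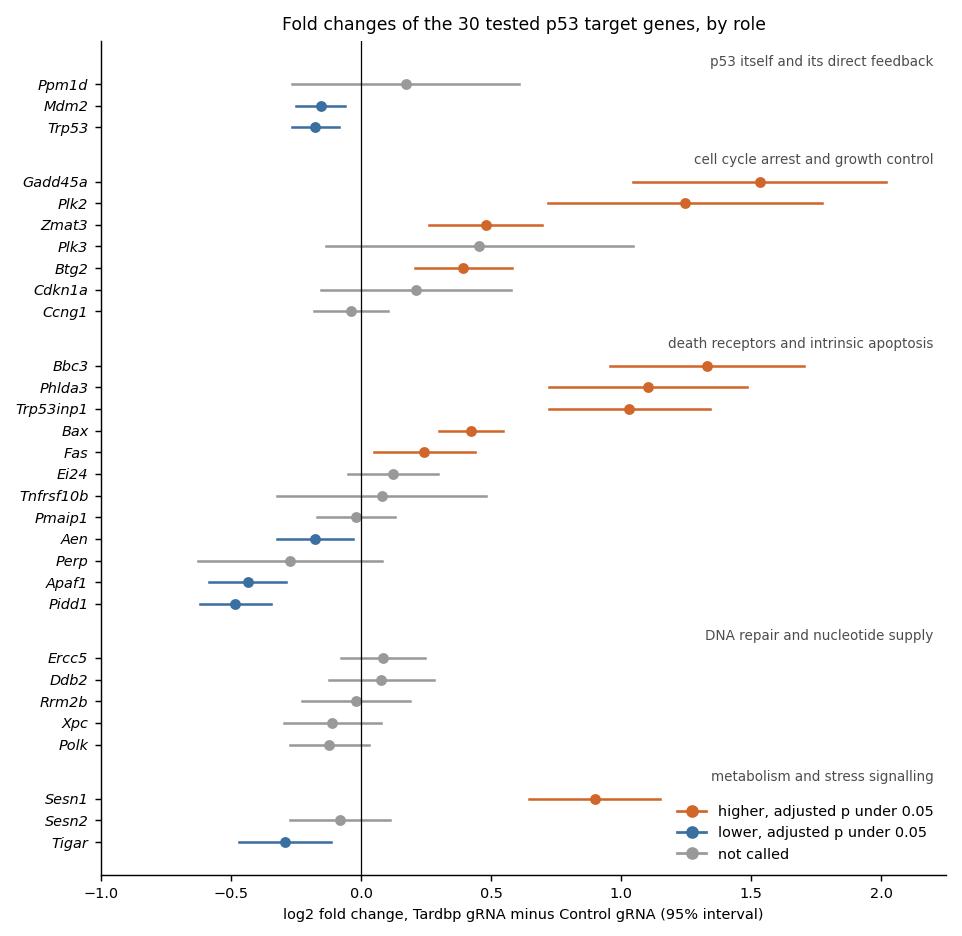
log2 fold change (Tardbp gRNA minus Control gRNA, 8 libraries each) of the 30 tested genes with 95% intervals, grouped by role and coloured by call. The repair genes all sit around 0, while the arrest and apoptosis groups spread from -0.48 for Pidd1 to 1.53 for Gadd45a.

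None of the 5 tested repair and nucleotide genes among the 32 was called by edgeR or DESeq2, and none had an unadjusted p under 0.05. Of all genes, 46.7% were called by edgeR. Ddb2 and Xpc, which find damage for nucleotide excision repair, had log2 fold changes of 0.08 (interval -0.12 to 0.28) and -0.11 (-0.30 to 0.08). The endonuclease Ercc5 of the same path stood at 0.08 (-0.08 to 0.25). Polk, a translesion polymerase, was at -0.12 (-0.27 to 0.03), and Rrm2b, the p53-inducible subunit of ribonucleotide reductase, at -0.02 (-0.23 to 0.19). No interval of the 5 reached below -0.30 or above 0.28. The sixth gene of this group, the nucleotide kinase Ak1, had at most 25 counts in a library and was not tested.

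Of the metabolic and stress genes, Sesn1 (sestrin 1), which restrains mTORC1 when leucine is scarce, rose. It ranged from 16.9 over 22 to 28.9 CPM in Control gRNA and from 29.7 over 43.5 to 51.8 in Tardbp gRNA, with no overlap. The log2 fold change was 0.90 (SE 0.12, adjusted p = 6.18e-06). Sesn2, its paralog and also a target of the stress factor Atf4, was level at 23.6 ± 3.75 and 22.3 ± 1.85 CPM (log2 fold change -0.08, interval -0.27 to 0.11). Tigar, a bisphosphatase that lowers glycolytic flux, was lower, from 16.9 over 19.3 to 22.2 CPM in Control gRNA and from 13.9 over 15.9 to 18.9 in Tardbp gRNA. In 6 of 8 edited libraries it was below every control, with a log2 fold change of -0.29 (SE 0.08, adjusted p = 0.00681). With the RNA concentration as a covariate Tigar was not called. Gdf15, a secreted stress cytokine, had 0 counts in 9 of 16 libraries and at most 16 counts in the rest.

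Groups did not overlap for 8 of the 30 tested genes (26.7%), beside 16.9% of all genes tested. Of these, 6 were higher (6.61% of all genes) and 2 lower (10.3%). The 6 were Gadd45a, Bbc3, Trp53inp1, Sesn1, Zmat3 and Bax, and the 2 were Apaf1 and Pidd1. Among the 10 genes that rose, the highest edited library was replicate 4 for 4 genes, replicate 3 for 3, replicate 8 for 2 and replicate 6 for 1, and no library was the lowest for more than 3. Within replicates 1 to 3 of each group, Bbc3, Gadd45a, Phlda3, Sesn1 and Trp53inp1 were called, and they were called within replicates 4 to 8 too. Both subsets are parts of the same 16 libraries. These genes were among the largest rises in the fit on all of them, so this is no independent check.

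**Figure D3:**
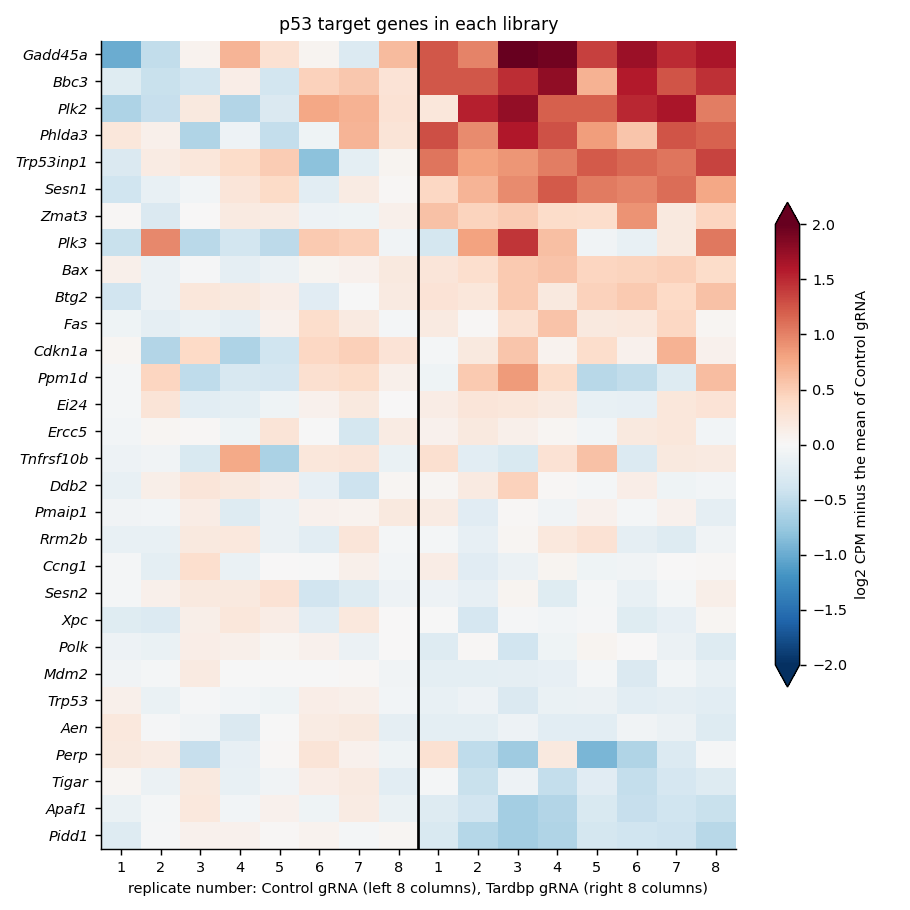
log2 CPM of the 30 tested genes minus the mean of Control gRNA, one row a gene ordered by fold change and one column a library, with the colour scale stopping at 2 in size. The 7 top rows, Gadd45a to Zmat3, are red in all 8 Tardbp gRNA columns, and the bottom rows, Apaf1 and Pidd1, are a weaker blue in all 8.

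Per length, the set spanned a wide range of levels in control cells, in TPM, which divide counts by transcript length and library size. Trp53 (257 ± 17 TPM) and Bax (254 ± 22.3) stood at the top and their ranges overlapped. Ccng1, Btg2 and Mdm2 followed at 74.9 ± 9.19, 73.7 ± 11.5 and 69.1 ± 5.09 TPM, apart from the pair above and overlapping among themselves. From there each gene overlapped its neighbour in the order except at a step from Mdm2 to Ei24 (43.2 ± 5.80), another from Aen (27.9 ± 7.09) to Sesn1 (11.8 ± 2.37), and a last one from Plk2 (0.738 ± 0.314) to Ak1 (0.0710 ± 0.0741). The 5 genes with the largest rises were in the lower part of this order in Control gRNA, from 0.738 TPM for Plk2 to 6.41 TPM for Trp53inp1. In Tardbp gRNA Bbc3 reached 4.63 ± 0.876 TPM and Gadd45a 4.36 ± 1.06, still far under the 28.3 ± 3.06 of Pmaip1 in controls.

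Of the 2 tested transcripts of Sesn1, the one with the inner start rose and the other was not called. Sesn1-201 begins at chr10:41887439 on the plus strand, just downstream of the half-site printed for Sesn1, and Sesn1-202 begins at chr10:41809935. Estimated CPM of Sesn1-201 went from a median of 10.8 (4.36 to 16.4) in Control gRNA to 29.7 (20.1 to 38.7) in Tardbp gRNA. The groups did not overlap, and the log2 fold change was 1.51 (SE 0.22, adjusted p = 0.000157). Sesn1-202 was not called, at 12.7 ± 2.46 and 13.3 ± 3.74 CPM, a log2 fold change of 0.02 with an interval of -0.35 to 0.39.

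Expressed as a share of the gene's counts, Sesn1-201 made up 0.427 ± 0.113 of Sesn1 in Control gRNA and 0.682 ± 0.0727 in Tardbp gRNA. The lowest edited library (0.566) was below the highest control (0.628). The difference of 0.26 (SE 0.05) had a limma adjusted p of 0.00612 over 32777 transcripts, and within replicates 4 to 8 alone it was 0.24 with an adjusted p of 0.0984. The authors' Psi, the inclusion level of a node (a piece of a gene) between 0 and 1, estimated separately by Whippet from the reads, gave 0.712 in Control gRNA and 0.926 in Tardbp gRNA for the first exon of Sesn1-201 (chr10:41887439-41887595), 1 value per group and with no replicate check.

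**Figure D4:**
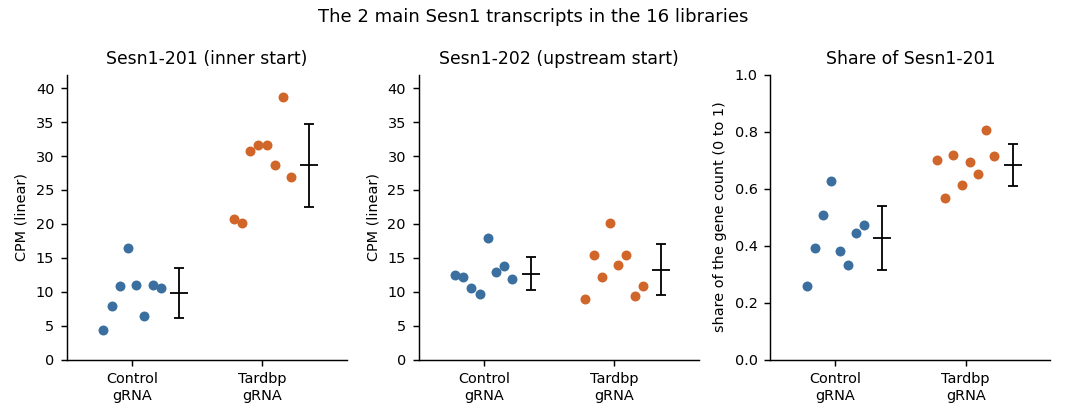
Estimated CPM of the transcripts Sesn1-201 and Sesn1-202 and the share of Sesn1-201 in the gene, per library, with mean and SD in black (8 libraries a group). Sesn1-201 is higher in every Tardbp gRNA library than in every control, while Sesn1-202 overlaps between groups around 13 CPM.

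Across all members, 87 transcripts of the 30 genes were tested and 13 were called (14.9%, beside 16.6% of 40897 transcripts), 11 higher and 2 lower, where 8.5% and 8.14% of all transcripts were. They belonged to 13 genes, and 11 of the 13 had the call of their gene, namely Gadd45a, Bbc3, Plk2, Phlda3, Trp53inp1, Sesn1, Zmat3, Btg2 and Bax, higher, and Apaf1 and Tigar, lower. The other 2 were Ei24-201 and a transcript of Trp53 annotated without a coding frame. Ei24-201 had a log2 fold change of 0.65 (SE 0.18, adjusted p = 0.0212), while its gene was not called. Its share of the gene's counts was not called either (limma adjusted p = 0.143). Ei24-202 ranged from 0.161 to 43.0 CPM over the Tardbp gRNA libraries, so the division of counts between these transcripts was unstable. The Trp53 transcript (log2 fold change 0.61, SE 0.17, adjusted p = 0.0185) rose from 4.19 ± 1.10 to 6.58 ± 1.24 CPM while the gene fell. Cdkn1a was counted almost only as Cdkn1a-201 (0.915 ± 0.0598 of its counts in Control gRNA), which begins at chr17:29093769, downstream of the start whose half-sites are printed. Its log2 fold change was 0.15, with an interval of -0.27 to 0.56.

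Of 76 transcript shares in 19 genes, 2 were called (2.63%, beside 0.635% of all shares), and both were those of Sesn1. In Psi, 11 of 269 nodes in 29 genes differed by over 0.1 between the groups, near the 4.7% of all 125520 nodes. They lay in Sesn1, Apaf1, Gadd45a, Rrm2b, Zmat3 and Aen, 7 at starts and 4 at 3′ ends. None of the 206 core exons of these genes did, the largest difference being 0.0586, beside 0.932% of all core exons. At the 3′ end of Rrm2b the distal piece went from 0.371 to 0.645 and the proximal piece from 0.631 to 0.354, although the gene's level did not change by the test. At the start of Apaf1 the outermost piece went from 0.180 to 0.363. These are 1 untested Psi value per group, with no replicate check. No tested transcript share of Rrm2b or Apaf1 was called.

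Among genes upstream of p53, 9 were lower and 2 higher of 24 tested from a list of 25 regulators (45.8% called, beside 46.7% of all genes), with a median log2 fold change of -0.11. Chek2, the kinase that carries the signal of DNA breaks to p53, went from 36.7 ± 4.45 to 28.3 ± 3.14 CPM (log2 fold change -0.38, SE 0.08, adjusted p = 0.000971). Trp53bp1 (53BP1), which marks breaks and binds p53, went from 66.3 ± 10.1 to 44.7 ± 3.08 CPM without overlap (log2 fold change -0.57, SE 0.08, adjusted p = 1.66e-05). Atm was level at 24.4 ± 3.90 and 24.4 ± 2.65 CPM, and Mdm4, the partner of Mdm2 that masks p53, was not called at a log2 fold change of 0.14 (interval -0.01 to 0.28, adjusted p = 0.109). The p53 relative Trp73, singled out after its values were seen, fell from 4.28 ± 2.53 to 0.402 ± 0.274 CPM (log2 fold change -3.39, SE 0.52, adjusted p = 3.60e-05) and was the only regulator to change by over 1 on the log2 scale.

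A second list of 40 p53 targets held calls in each direction at shares near those of all genes. With 36 tested, 9 were higher (25.0%) and 10 lower (27.8%), beside 23.5% and 23.3% of all genes. In all 52.8% were called, beside 46.7% of all genes, at a median log2 fold change of 0.04 beside 0.05. The highest among the better expressed were Ephx1, an epoxide hydrolase (6.24 ± 2.63 to 31.0 ± 11.1 CPM, log2 fold change 2.32, SE 0.24), Tob1, an antiproliferative relative of Btg2 (0.43, SE 0.14), and the tetraspanin Cd82 (0.36, SE 0.05). The lowest were Polh, the translesion polymerase eta (27.9 ± 3.11 to 16.8 ± 3.65 CPM, log2 fold change -0.74, SE 0.13), Tsc2, a brake on mTORC1 (-0.35, SE 0.09), and the recombination gene Rad51c (-0.31, SE 0.12). Changes over 1 on the log2 scale were seen in 4, which are Ephx1, Dcxr and Trp53inp2, higher, and Gls2, lower.

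Proliferation genes that p21 is known to repress through the DREAM complex were lower in 14 of 16 cases and higher in none, while Cdkn1a was not called (of all genes 23.3% were lower and 23.5% higher), and the median log2 fold change was -0.50. Bub1, a checkpoint kinase of mitosis, went from 162 ± 14.5 to 88.5 ± 15.9 CPM (log2 fold change -0.87, SE 0.10), the replication helicase subunit Mcm5 by -0.76 (SE 0.06) and the transcription factor Mybl2 by -0.74 (SE 0.09). The smallest called changes were those of Cdc25c (-0.20, SE 0.06), Cdk1 (-0.34, SE 0.05) and Cdc20 (-0.34, SE 0.04). Ccnb2 and Birc5, of the same list, had log2 fold changes of -0.03 and 0.01.

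The deposited column headed sex gives a letter, M or F, for each library. The group by letter interaction was called for 0 of the 30 targets by edgeR and 0 by DESeq2, beside 0 of all genes by edgeR (0%), with 0 targets at an unadjusted p under 0.05 and a smallest unadjusted p of 0.0564. All 16 libraries held both Xist (9.82 to 69.0 CPM) and the Y-linked Ddx3y (18.3 to 39.0 CPM), so the letter did not follow these genes and the interaction is no comparison of sexes.

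Some members share exons with other genes, and reads there may be counted for either, since the strand setting of the counting is not given in the sources used here. Ddb2 shares 23.8% of its exonic bases with Acp2 on the opposite strand (16.5 CPM on average), and Gadd45a shares 19.1% with E230016M11Rik on the opposite strand (1.20 CPM). For the 6 further members with such a neighbour the neighbour was under 0.6 CPM. The processed pseudogene of Trp53, Trp53-ps, was at most 4.16 CPM in any library.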

How the data were processed

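Sorted CD8+ T cells of 16 samples (8 Control gRNA, 8 Tardbp gRNA, by the labels) were sequenced as SMART-Seq v4 libraries. According to the submitters' notes, the authors aligned reads to mm10 with HISAT2 2.1.0 and SAMtools 1.9 and made estimated counts with StringTie 2.1.0, which were deposited per gene and transcript without normalization and were whole numbers. Psi was deposited by the authors as a fraction per group, with columns named by letter only, and which letter is which group was taken from a supplementary table of the study on the same nodes. The RNA concentration before dilution is a deposited score without unit, and read pairs per library are deposited counts from the facility. Per library 29714709 to 48164083 read pairs were recorded. Columns of the authors' own Psi comparison (difference, probability) were not used, nor were 10 columns of each count table that match no sample here. Between 0.0836 and 0.132% of counts stood in lines without a gene, which were dropped.

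The members and lists were chosen with earlier results of these data known. All genes were fitted with edgeR 4.0.16 (TMM, filterByExpr by group with minimum count 10, minimum total 15 and proportion 0.7, quasi-likelihood test, two-sided, no covariate), adjusted over all 16650 genes tested. Transcripts were fitted alike, and shares with limma 3.58.1 (adjusted p under 0.05 and a difference over 0.1). Intervals are 95% t intervals with 14 degrees of freedom from the SE. Scripts were tested on simulated data with 200 changed genes. Named were every member, Tardbp, Mdm4, Atm, Chek2, Trp53bp1 and, of each other list, the 3 highest and the 3 lowest of those called whose mean log2 CPM was 3 or more, with exceptions said in the text. Alternatives included DESeq2 1.42.0, RLE scaling, other filters, covariates, subsets of libraries (replicates 1 to 3 and 4 to 8, a division known from earlier results) and leaving out each library, and the removal of Tardbp gRNA replicates 1 and 4 was added after the data were seen. PCR copies were counted, so counts are not independent molecules. Names and coordinates are of GENCODE M21 (GRCm38), promoter windows of RefSeq.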

Additional observations from a re-analysis of the deposited data

Results flagged for a closer look

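Within a group, 1 library stood far from the other 7 in 4 of 62 cases searched over the 30 tested genes and Tardbp (Dixon's test at 95%), and chance gives about 1 in 20. Mdm2 was 133 CPM in Control gRNA replicate 3 and 112 to 120 in the other control libraries. Pidd1 was 46.6 CPM in Control gRNA replicate 1 and 54.5 to 59.6 in the others, which leaves it above every Tardbp gRNA library. Ddb2 was 54.4 CPM in Tardbp gRNA replicate 3 and 37.6 to 44.7 in the others. Tardbp itself was 110 CPM in Tardbp gRNA replicate 3 and 130 to 147 in the others. Without Control gRNA replicate 3 the call of Mdm2 was kept, with its adjusted p no higher than 0.0145 when any 1 library was left out.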

How the results depend on the processing

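DESeq2, RLE scaling, a mean CPM of at least 1, counts divided by 2, a term for replicates 1 to 3 against 4 to 8 and the replicate block left the calls of all 30 targets as they were. Replicate numbers did not pair the libraries (correlations of -0.0048 to 0.16, 1 of 8 best with its own number). With the replicate block the count of all genes called was 7645, with 16 targets and 2 shares (adjusted p = 0.0437 for Sesn1-201). A covariate for log2 RNA concentration, which separates the groups, gave 6 targets (4 higher, 2 lower), 7 regulators, 7 other targets, 13 proliferation genes and 2697 genes, and log2 fold changes of 0.22 for Perp, 0.13 for Aen, -0.16 for Ddb2 and -0.11 for Ercc5. Replicates 1 to 3 alone gave 5 targets, all higher, 2 regulators and 3 other targets, and the count of all genes called was 1696. Within replicates 4 to 8 alone the calls of Mdm2, Fas and Aen were lost, and Ppm1d was at -0.042. There 6 target transcripts and 0 shares were called. A log2 fold change over 1 in size left 5 targets, 1 regulator, 4 other targets, 0 proliferation genes and 1001 genes. An adjusted p under 0.01 left 12 other targets and 8 target transcripts. Psi gave 28 nodes over 0.05 and 0 core exons over 0.1. Counts in this section without a count of all genes beside them were not compared with that background. With no filter on low counts the calls of Fas and Aen were lost, and with the letter as a covariate that of Aen. With that covariate Pmaip1 was at 0.017, and without Tardbp gRNA replicates 1 and 4 Tnfrsf10b was at -0.016. Leaving out 1 library at a time gave 14 to 16 targets, a median of 0.057 to 0.10 and ranges across 0 for Ccng1 (-0.092 to 0.014), Tnfrsf10b (-0.028 to 0.19), Pmaip1 (-0.081 to 0.0073) and Rrm2b (-0.094 to 0.015), none of them called. The cause of these changes was not tested, except that subsets hold fewer libraries. Scarce genes rest on few counts, down to 35 for Gadd45a.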
